A study of Homo sapiens with 16 samples.

Results

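The comparison described here is that of shAjuba1, a line of SW480 cells carrying a lentiviral short hairpin RNA (shRNA) against AJUBA, with shScrambled, the SW480 line carrying an shRNA of random sequence. Its members were chosen by their sample labels and are the 3 samples of shAjuba1 and the 2 samples of shScrambled, 5 of 16 samples in all. SW480 is an immortal human cell line derived from a colon adenocarcinoma. The shAjuba1 hairpin is directed at the coding region of the AJUBA transcript, at position 1385, and both lines were made by lentiviral transduction and selected with 1.5 μg/mL puromycin, so that the control shares the vector and the drug. The untransduced Parental cells (n = 2) and the second knockdown line, shAjuba2 (n = 3), whose hairpin lies in a non-coding part of the transcript at position 2786, were compared with shAjuba1 to show where it differs. The overexpression line Ajuba OE (n = 3) and its vector line, Control (n = 3), which carries the same construct with the AJUBA sequence removed, are given as values only. The lines shAjuba2, Ajuba OE and Control were selected with the same dose of puromycin. No puromycin is given for Parental, so that comparison differs in vector and drug as well. All lines were between passage 10 and 18. Each group is a single stable line, and the study calls the samples of a line technical replicates, so p-values measure the spread between samples of a line, which may be technical. A difference between shAjuba1 and shScrambled therefore cannot be told apart from a difference between 2 separately grown lines.

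AJUBA is a LIM-domain protein of the zyxin family that sits at cell adhesions and moves to the nucleus. With its relatives LIMD1 and WTIP it binds the LATS kinases of the Hippo pathway, which restrain the coactivators YAP and TAZ, and it is a partner of the Snail repressors and of alpha-catenin at adherens junctions. The comparison asks how the transcriptome of a colon cancer line differs when its AJUBA level is lowered.

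Between 30132396 and 50312458 read pairs were counted on genes in the 5 samples, and RPM below is the count of a gene per 1000000 counted read pairs of its sample. Mitochondrial genes took 14.4% to 16.2% of counts in shAjuba1, 15.4% and 17.2% in shScrambled, and 10.4% and 9.93% in Parental. All log2 fold changes are of shAjuba1 against the line named, with a positive value where shAjuba1 was higher, and their p-values come from the quasi-likelihood F test of edgeR and were adjusted over all genes tested by the method of Benjamini and Hochberg. A gene is called a DEG where that value was under 0.05. In such bulk samples fewer cells of a kind and less RNA per cell cannot be told apart. Of the genes named below, FGF13, ITGB8, ITGA1, TNFAIP3, IFIT2, MYC, CDH1, EGFR and AMIGO2 share exonic bases with a gene on the other strand. Overlaps of ITGB2, COLCA1, KRT8 and KRT18 are given where these genes are described. Whether counting used the strand is not given in the sources used here.

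AJUBA (ENSG00000129474, hg38 chromosome 14, 22971177 to 22982551, minus strand) was checked first, since it is the target of the hairpin. Its RPM was 49.6, 47.3 and 53.5 in the samples of shAjuba1, against 83.4 and 81.6 in shScrambled. The samples of Parental had 88.8 and 91.6 RPM, and those of shAjuba2 had 60.3, 68.6 and 57.1. All 3 samples of shAjuba1 lay below every sample of the other lines. AJUBA fell to 0.601 of its level in shScrambled, a log2 fold change of -0.73 (SE 0.0834, adjusted p = 2.19e-05), and the log2 fold change against Parental was -0.88. Against shAjuba2 the difference of -0.26 did not pass (adjusted p = 0.141), although the samples of the 2 knockdown lines did not overlap. Ajuba OE had 461.8 to 566.2 RPM, and Control 89.4 to 100.5.

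**Figure D1:**
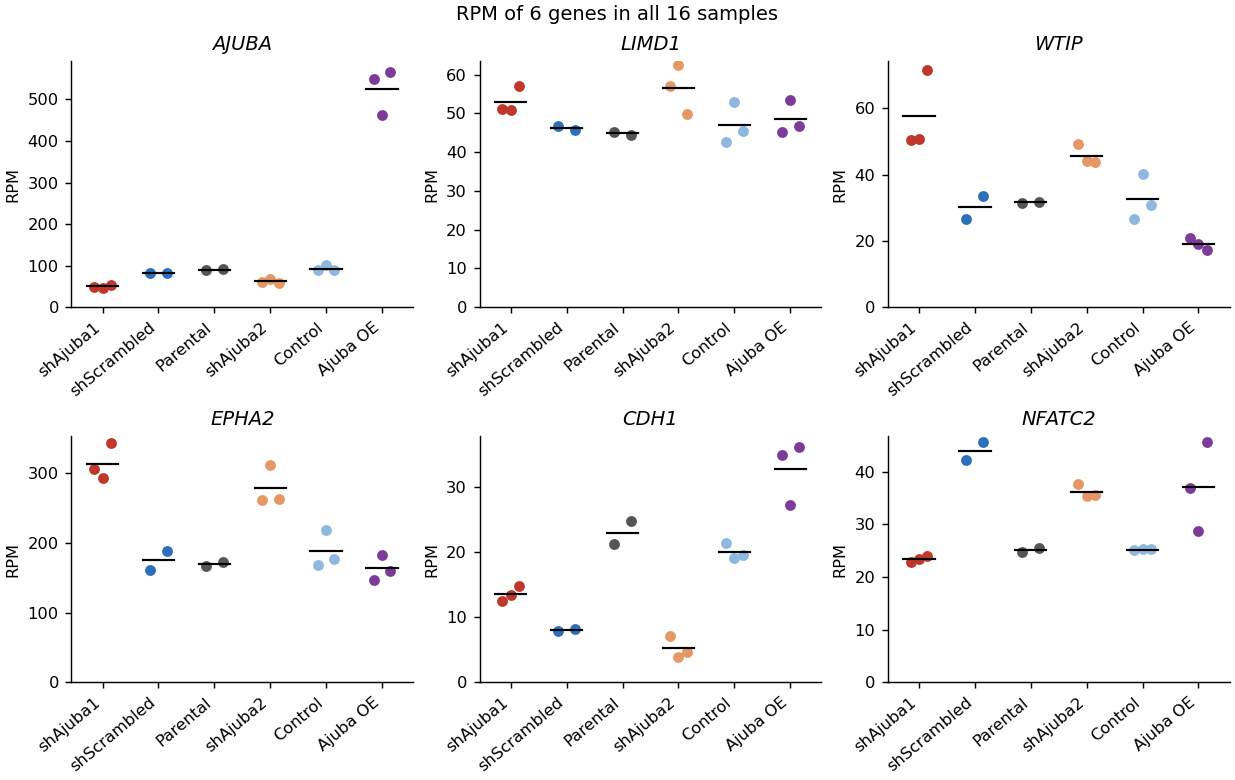
RPM of AJUBA, its relatives LIMD1 and WTIP, and EPHA2, CDH1 and NFATC2 in all 16 samples, with 1 point for a sample, a black line for the mean of a line of cells, and a vertical axis that starts at 0 in each panel. AJUBA is lowest in shAjuba1, WTIP is highest there, and CDH1 in shAjuba1 lies above shScrambled and below Parental.

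Of the relatives of AJUBA, WTIP rose and LIMD1 was not called. WTIP had 50.4, 50.8 and 71.5 RPM in shAjuba1 and 26.7 and 33.6 in shScrambled, and each sample of shAjuba1 lay above all samples of the other 5 lines. Its log2 fold change was 0.91 (SE 0.147, adjusted p = 0.000364), and it was 0.38 against shAjuba2, which did not pass. LIMD1 had 51.1, 50.8 and 57.1 RPM against 46.8 and 45.7, a log2 fold change of 0.18 that did not pass (adjusted p = 0.123). Among the zyxin-type LIM proteins, which link actin to adhesions, LPP (-0.73) and FBLIM1 (-0.46) fell and ZYX (0.34) rose. Of the 7 members tested 2 were higher and 3, AJUBA included, lower, and their median log2 fold change was -0.11. ZYX lost its call with either sample of shScrambled left out.

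Several further genes are named in the study. EPHA2, an Eph receptor tyrosine kinase, rose by a log2 fold change of 0.83 (SE 0.0967, adjusted p = 2.8e-05), from 161 and 189 RPM in shScrambled to 306, 292 and 343 in shAjuba1. The epidermal growth factor receptor EGFR rose by 0.34 and was not called against Parental (0.10). RPS6, a protein of the small ribosomal subunit (-0.07), and the proliferation marker MKI67 (-0.06) were not called. CDH1, which encodes E-cadherin, had 12.4, 13.5 and 14.8 RPM in shAjuba1, 7.87 and 8.23 in shScrambled and 21.2 and 24.7 in Parental. It was thus higher than in shScrambled (log2 fold change 0.73, adjusted p = 0.000253) and lower than in Parental (-0.79, adjusted p = 0.00022), and the lines did not overlap in either case. The Snail factor SNAI1 (0.36) and YAP1 (0.15) were not called, whereas WWTR1, which encodes TAZ, rose by 0.46. NFATC2, a calcium-regulated transcription factor, fell by 0.92 on the log2 scale, with 22.8, 23.4 and 24 RPM against 42.2 and 45.6. It did not differ from Parental (log2 fold change -0.14, adjusted p = 0.240), where it had 24.9 and 25.6 RPM.

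Across the transcriptome 8103 of 21082 genes tested (38.4%) were DEG in shAjuba1 against shScrambled. Of these 3839 were higher (18.2% of the genes tested) and 4264 were lower (20.2%). The median size of the log2 fold change over the DEG was 0.61, and 3088 of them (38.1%) were under 0.5. A log2 fold change of at least 1 was reached by 881 higher genes (4.18%) and one of at most -1 by 1193 lower genes (5.66%). With a log2 fold change of 2 or more in size there were 184 higher and 215 lower genes. The median over all genes tested was -0.01, which the scaling sets near 0, and medians differed between classes of GC content, as given below. The samples of the 2 lines did not overlap in RPM for 12667 genes (60.1%), which is the share to hold beside each statement on overlap below. All samples of shAjuba1 lay above all 13 other samples in RPM for 1346 of the genes tested, and below them for 1242. These counts are to be held beside each statement here on all other samples. The shares of 18.2% higher and 20.2% lower are to be held beside the counts of each list below. With 1 sample of shScrambled left out the DEG came to 4711 (without replicate 1) or 5013 (without replicate 2).

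**Figure D2:**
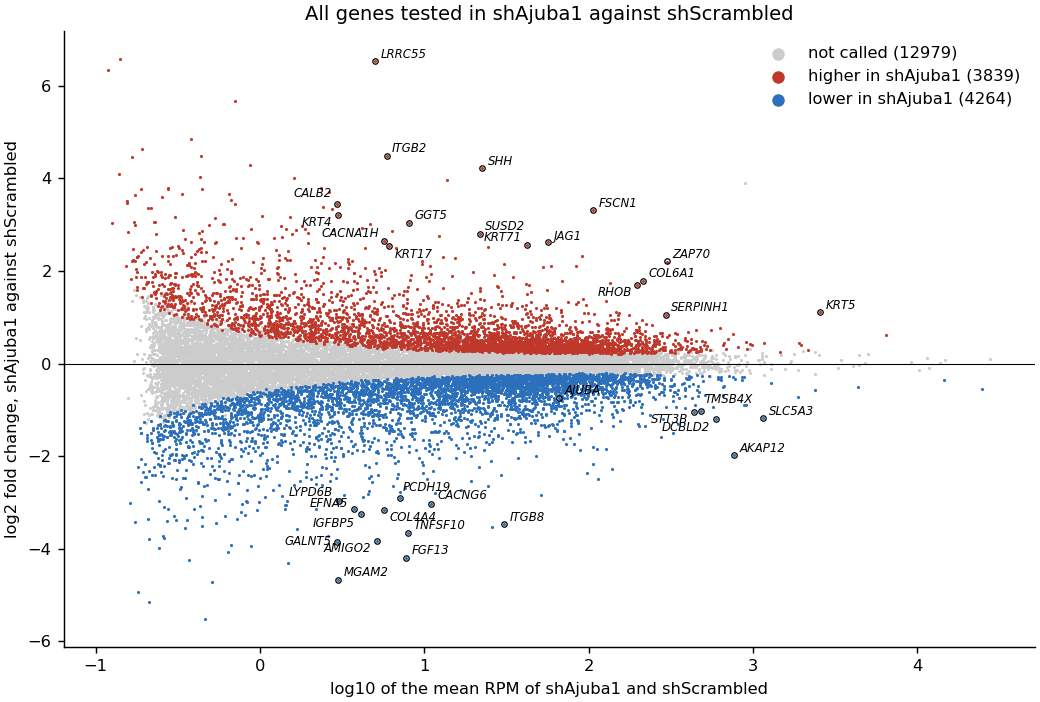
Log2 fold change of each of the 21082 genes tested, shAjuba1 against shScrambled, over the log10 of the mean RPM of the 2 lines, with red points for higher, blue for lower and grey for not called genes. Labels mark the 12 largest rises and 12 largest falls of protein-coding genes of at least 5 RPM and the 10 abundant genes described in the text, and AJUBA itself (-0.73) lies within the cloud of lower genes.

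The largest rise among protein-coding genes of at least 5 RPM was that of LRRC55 (chromosome 11, 57181747 to 57191717, plus strand), an accessory subunit of BK potassium channels. It was counted 494, 312 and 331 times in shAjuba1 and 4 and 5 times in shScrambled. This corresponds to 10.3, 10.4 and 9.14 RPM against 0.11 and 0.0994, a log2 fold change of 6.53 (SE 0.235, adjusted p = 3.11e-09). Parental had 0.199 and 0.149 RPM and shAjuba2 0.172, 0.135 and 0.103. SHH, the Sonic hedgehog ligand (chromosome 7, 155799980 to 155812463, minus strand), had 42.9, 41.9 and 43.3 RPM against 2.08 and 2.42, a log2 fold change of 4.22 (SE 0.121, adjusted p = 1.3e-09). Every sample of shAjuba1 was above all 13 other samples for both genes, and the samples of shAjuba1 were close to each other.

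ITGB2, the beta subunit of leukocyte integrins, rose by 4.49 (SE 0.181), from 0.439 and 0.537 RPM to 10.9, 10.5 and 12.6. Its antisense RNA ITGB2-AS1, which overlaps it on the other strand of chromosome 21, rose by 3.97, and the reads of the pair cannot be told apart where counting did not use the strand. ITGAM, the alpha subunit that pairs with ITGB2, had 2.89, 3.12 and 3.97 RPM against 0.357 and 0.497 (log2 fold change 2.90, adjusted p = 1.52e-06). Yet the wider list of leukocyte and endothelial markers did not rise as a whole. Its 10 genes summed to 8.08, 8.40 and 9.96 RPM in shAjuba1 and to 11.2 and 11.5 in shScrambled, PTPRC was at 0 in all 5 samples, and of its 6 members tested 2 were higher (ITGAM and PECAM1) and 2 lower (LYZ, -2.17, and VWF, -1.30). Of 10 fibroblast markers 3 passed the filter on low counts and none was called, and all 10 summed to 26.9 to 33.5 RPM in shAjuba1 and 32.9 and 34.0 in shScrambled.

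Other large rises were those of genes of the cytoskeleton and of signalling. FSCN1, which bundles actin in cell protrusions, rose by 3.31 (SE 0.115), from 19.4 and 19.2 RPM to 198, 167 and 215, and JAG1, a Notch ligand, by 2.63 (SE 0.0946), from 15.2 and 16 RPM to 102, 95.6 and 95.4. Both were above all other samples, and both were also higher in shAjuba2 than in shScrambled by RPM, with 77.5, 74.0 and 113 for FSCN1 and 49.7, 57.9 and 53.4 for JAG1. Several keratins, the intermediate filament proteins of epithelia, were among the largest rises, with KRT4 at 3.20, KRT71 at 2.56 and KRT17 at 2.55. The calcium-binding CALB2 (3.45), the T-type calcium channel CACNA1H (2.65), the gamma-glutamyltransferase GGT5 (3.05) and SUSD2 (2.80) completed the 12 genes at the top.

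MGAM2, a maltase-glucoamylase relative, fell most, by 4.67 on the log2 scale (SE 0.208, adjusted p = 1.1e-08). It was counted 13, 6 and 7 times in shAjuba1 against 200 and 307 times in shScrambled. FGF13, a fibroblast growth factor homologue that acts inside the cell, had 0.67, 0.996 and 0.80 RPM against 14.6 and 14.7 (log2 fold change -4.20, SE 0.153). TNFSF10, the death ligand TRAIL, had 1.19, 1.26 and 1.104 RPM against 12.9 and 16.6 (-3.66), and ITGB8, an integrin subunit that pairs with ITGAV, had 5.34, 5.61 and 4.42 against 51.3 and 61.1 (-3.47). The lines were far apart for each of these genes, and FGF13, TNFSF10 and ITGB8 were lower in shAjuba1 than in all other samples. The other genes at the bottom were GALNT5 (-3.85), AMIGO2 (-3.84), IGFBP5 (-3.26), the collagen COL4A4 (-3.16), the ephrin EFNA5 (-3.15), CACNG6 (-3.04), LYPD6B (-2.97) and the protocadherin PCDH19 (-2.90).

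For part of these genes shScrambled stood apart from Parental as well. ITGB8 had 14.3 and 15.3 RPM in Parental, so that its log2 fold change was -3.47 against shScrambled and -1.56 against Parental. MGAM2 (-4.67 and -3.13), AMIGO2 (-3.84 and -1.96), KRT71 (2.56 and 0.90) and KRT4 (3.20 and 0.99) were likewise nearer to Parental. For LRRC55 (6.53 and 5.81) the gap was less in proportion and rests on few reads in shScrambled and Parental. KRT17 (2.55 and 2.88) was not nearer to Parental. With Parental and shScrambled together as control FSCN1 went from 3.31 to 2.45, JAG1 from 2.63 to 1.93 and GGT5 from 3.05 to 2.06. All of them were still called, and KRT17 went from 2.55 to 2.72.

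Among DEG whose log2 fold change was 1 or more in size the most reads fell on KRT5, a basal keratin, with 3340, 3259 and 3914 RPM in shAjuba1 and 1636 and 1585 in shScrambled (log2 fold change 1.11, SE 0.101, adjusted p = 3.41e-06). Parental had 3200 and 3192 RPM, and the difference from it did not pass (0.10, adjusted p = 0.397). COL6A1, a collagen VI chain, had 319, 303 and 380 RPM against 83.6 and 108 (1.79), and its log2 fold change against Parental was 1.90. RHOB, a small GTPase, rose by 1.70, the collagen chaperone SERPINH1 by 1.05 and the kinase ZAP70, best known from T cells, by 2.21. ZAP70 had 466, 425 and 594 RPM in shAjuba1, 96.1 and 116 in shScrambled, 257 and 228 in Parental and 367, 544 and 380 in shAjuba2, so that of these 4 lines shScrambled was lowest. On the lower side AKAP12, a scaffold for protein kinase A, went from 1225 and 1233 RPM to 313, 321 and 311 (-1.98, SE 0.0821, adjusted p = 7.58e-09). The inositol transporter SLC5A3 (-1.18), DCBLD2 (-1.19), the actin-sequestering TMSB4X (-1.02) and the oligosaccharyltransferase subunit STT3B (-1.04) also fell. RPM is not scaled by gene length and ranks genes here by reads alone.

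The non-coding genes of at least 1 RPM in the higher line with the largest changes were FAM30A (4.01), ITGB2-AS1 (3.97), LINC01805 (-3.93), the pseudogene POM121L9P (3.79) and COLCA1 (-3.53). COLCA1 (chromosome 11, 111290787 to 111305498, minus strand), which overlaps POU2AF3 on the other strand, had 3.98, 4.71 and 3.89 RPM in shAjuba1 against 46.1 and 49.0 in shScrambled and 24.8 and 18.9 in Parental. In shAjuba2 it was lower still, with 1.46, 0.969 and 0.72 RPM, and the difference between both knockdown lines passed the test (2.04, adjusted p = 0.000506).

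The genes of cholesterol synthesis fell nearly as a whole. These genes, from the early synthase HMGCS1 to the late enzyme DHCR7, are switched on together by the transcription factor SREBP2 when sterols are low, and INSIG1 holds SREBP2 back as a feedback. Of 25 members tested 22 fell and none rose, against 20.2% of all genes tested that fell, and their median log2 fold change was -0.63 against -0.01 over all genes. INSIG1 (chromosome 7, 155297776 to 155310235, plus strand) fell furthest, from 75.3 and 76.6 RPM to 19.7, 19.8 and 18.5 (-1.99, SE 0.0865, adjusted p = 9.79e-09). It was lower in every sample of shAjuba1 than in any other sample, and its log2 fold change against Parental was -1.99 too. The demethylase MSMO1 had 32.0, 31.5 and 24.8 against 71.9 and 64.0 (-1.22). SREBF2, which encodes SREBP2, fell by 0.66 and HMGCS1 by 0.63. PMVK, LSS and STARD4 were not called. Against Parental 24 of the 25 were lower, with a median of -0.67, and in the model of all 16 samples 14 were lower than in shScrambled.

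Fatty acid synthesis genes went the same way, with 11 of 17 members lower, none higher and a median of -0.38. The elongases ELOVL7 (-1.88) and ELOVL6 (-1.36), the acyl-CoA synthetase ACSL5 (-1.58) and the desaturase SCD (-0.93) fell most. SCD had 234, 240 and 231 RPM against 448 and 437 in shScrambled and 580 and 644 in Parental. Fatty acid synthase, FASN, had a log2 fold change of -0.27 that did not pass. In the model of all 16 samples 5 members were lower, and without either sample of shScrambled 7 were.

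Type I interferon response genes, which encode antiviral proteins and are switched on through factors that include STAT2 and IRF9, were mostly lower in shAjuba1. Of 27 members tested 20 fell and 5 rose, with a median of -0.55. Over all genes tested 20.2% fell and 18.2% rose, so the count that rose was near that share. Against Parental 18 were lower. With replicate 1 of shScrambled left out 12 fell, and with replicate 2 left out 3 rose. OAS2, an enzyme that senses double-stranded RNA, had 4.81, 4.02 and 4.25 RPM against 30.3 and 27.5 in shScrambled, 25.0 and 23.9 in Parental and 18.7, 18.7 and 19.0 in shAjuba2 (log2 fold change -2.73, SE 0.114, adjusted p = 7.58e-09). IFIT2 fell by 3.20 at a low level, with 8, 7 and 2 counts against 49 and 71. OAS1 fell by 2.01, SAMD9 by 1.88, HERC6 by 1.50 and IFIT1 by 1.45, and STAT2 itself fell by 0.62. The 5 that rose were RIGI (0.65), the sensor of viral RNA, the factors IRF7 (0.59) and IRF9 (0.54), ISG20 (0.62) and IFI27 (0.57). IFI27 was nonetheless lower than in Parental (-0.85), where it had 8.13 and 8.86 RPM against 4.90, 4.91 and 4.61 in shAjuba1.

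Promoter sequences were scanned for the interferon-stimulated response element, searched on either strand as GAAA, any 2 bases and GAAA again, in the 300 bases from 250 before to 50 after the start of each gene. It was found in 3.65% of 27305 promoters and in 14 of the 23 promoters of the list that were matched (60.9%). To show that it stands in members of both directions, 3 promoters are printed from RefSeq (GRCh38.p14), with the matches in capitals, those of IFIT1 (chr10:89392373-89392672, plus strand) and SAMD9 (chr7:93117930-93118229, minus strand), which fell, and that of IFI27 (chr14:94110486-94110785, plus strand), which rose although its window holds the element 2 times.
IFIT1: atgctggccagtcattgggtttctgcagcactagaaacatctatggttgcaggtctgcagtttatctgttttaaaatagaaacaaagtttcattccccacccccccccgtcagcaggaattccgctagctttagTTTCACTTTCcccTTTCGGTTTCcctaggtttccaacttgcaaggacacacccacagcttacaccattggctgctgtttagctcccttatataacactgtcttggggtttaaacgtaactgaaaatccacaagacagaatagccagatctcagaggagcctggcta
SAMD9: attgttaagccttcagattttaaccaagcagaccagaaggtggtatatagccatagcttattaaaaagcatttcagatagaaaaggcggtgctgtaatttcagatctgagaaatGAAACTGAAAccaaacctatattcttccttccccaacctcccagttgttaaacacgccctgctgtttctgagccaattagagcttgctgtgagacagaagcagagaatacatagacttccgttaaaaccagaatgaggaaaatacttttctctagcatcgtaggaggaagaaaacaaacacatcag
IFI27: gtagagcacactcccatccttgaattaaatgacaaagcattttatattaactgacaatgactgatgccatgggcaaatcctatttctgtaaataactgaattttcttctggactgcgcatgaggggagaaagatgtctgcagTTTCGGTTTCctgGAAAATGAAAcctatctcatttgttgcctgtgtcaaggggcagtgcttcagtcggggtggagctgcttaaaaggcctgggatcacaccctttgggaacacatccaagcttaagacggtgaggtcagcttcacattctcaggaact
A match is a description of these letters and not of a site in use. The list holds known interferon response genes, so its share of matches describes the list and not these samples. OAS1, IFI35, STAT2, HERC6 and PARP9 fell and hold no match, and RIGI and IRF9 rose without one. IFI44 and IFI44L hold a match and were not tested.

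The genes of antigen presentation by MHC class I, many of which respond to interferon as well, did not fall. Of 18 tested 6 rose and none fell, with a median of 0.19. HLA-B had 77.3, 74.1 and 71.1 RPM against 45.1 and 46.1 (0.69, adjusted p = 4.89e-05), the peptide transporter TAP1 rose by 0.36 and their activator NLRC5 by 0.45. With either sample of shScrambled left out 2 members rose.

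Targets of NF-kB, the transcription factor of inflammatory signalling, had the highest median of all lists, 0.86. Of 20 members tested 11 rose and 2 fell (IL1A and CCL28), against 18.2% of all genes tested that rose. NFKB2, which encodes the p100 subunit of the non-canonical branch, had 103, 98.3 and 121 RPM against 28.9 and 33.0 (log2 fold change 1.78, SE 0.106, adjusted p = 1.03e-07), and its partner RELB had 22.6, 18.4 and 23.2 against 9.87 and 11.2 (1.00). TNFAIP3, the deubiquitinase A20 that shuts NF-kB off again, had 9.46, 8.30 and 9.96 RPM against 2.41 and 2.13 (2.02, adjusted p = 4.12e-07). All 3 genes lay above every sample of the other lines. The inhibitor NFKBIA rose by 0.68 and BIRC3, an inhibitor of apoptosis, by 0.98. TNF itself had 0.837, 1.03 and 1.02 RPM against 0.0549 and 0.139 (3.15), TNFAIP2 rose by 1.35, IL32 by 1.76, CXCL1 by 1.86 and the adhesion molecule ICAM1 by 0.74. NFKB1, the p105 subunit, had a log2 fold change of 0.20 that did not pass. Against Parental 11 members were higher and 2 lower, with a median of 0.84.

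The kappaB site, searched on either strand as GGG, any 2 bases and TTTCC, was found in 1.92% of the 27305 promoters and in 11 of the 20 matched promoters of this list (55.0%). Those of 3 genes that rose are shown from RefSeq (GRCh38.p14) with the matches in capitals, TNFAIP3 (chr6:137867009-137867308, plus strand), NFKBIA (chr14:35404700-35404999, minus strand) and CXCL1 (chr4:73869143-73869442, plus strand).
TNFAIP3: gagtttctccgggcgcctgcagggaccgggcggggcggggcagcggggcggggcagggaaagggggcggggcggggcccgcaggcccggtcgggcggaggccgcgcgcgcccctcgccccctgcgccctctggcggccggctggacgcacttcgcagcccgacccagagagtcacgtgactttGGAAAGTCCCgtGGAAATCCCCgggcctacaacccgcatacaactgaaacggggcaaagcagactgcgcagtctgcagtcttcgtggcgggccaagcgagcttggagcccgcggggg
NFKBIA: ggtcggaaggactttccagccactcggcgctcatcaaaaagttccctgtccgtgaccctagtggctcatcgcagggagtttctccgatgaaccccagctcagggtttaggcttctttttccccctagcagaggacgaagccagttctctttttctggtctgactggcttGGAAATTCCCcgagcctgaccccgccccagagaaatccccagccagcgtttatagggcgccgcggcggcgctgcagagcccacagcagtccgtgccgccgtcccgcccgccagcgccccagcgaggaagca
CXCL1: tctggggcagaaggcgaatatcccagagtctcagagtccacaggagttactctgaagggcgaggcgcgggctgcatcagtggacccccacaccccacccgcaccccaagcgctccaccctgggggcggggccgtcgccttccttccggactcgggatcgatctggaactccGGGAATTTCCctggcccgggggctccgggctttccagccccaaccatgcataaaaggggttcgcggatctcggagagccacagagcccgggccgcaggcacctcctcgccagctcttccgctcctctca
IL32 and BIRC3 rose and hold a match too. NFKB1, CXCL2 and CXCL3 hold a match as well and were not called, and CXCL5, CCL20 and IL6 hold one and were not tested. TNF, TNFAIP2, NFKB2 and ICAM1 rose and hold none. The list holds known NF-kB targets, so its share of matches describes the list and not these samples. For the cholesterol genes the sterol element TCACNCCAC was in 1 of 18 matched promoters (SREBF2) and in 1.15% of all.

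**Figure D3:**
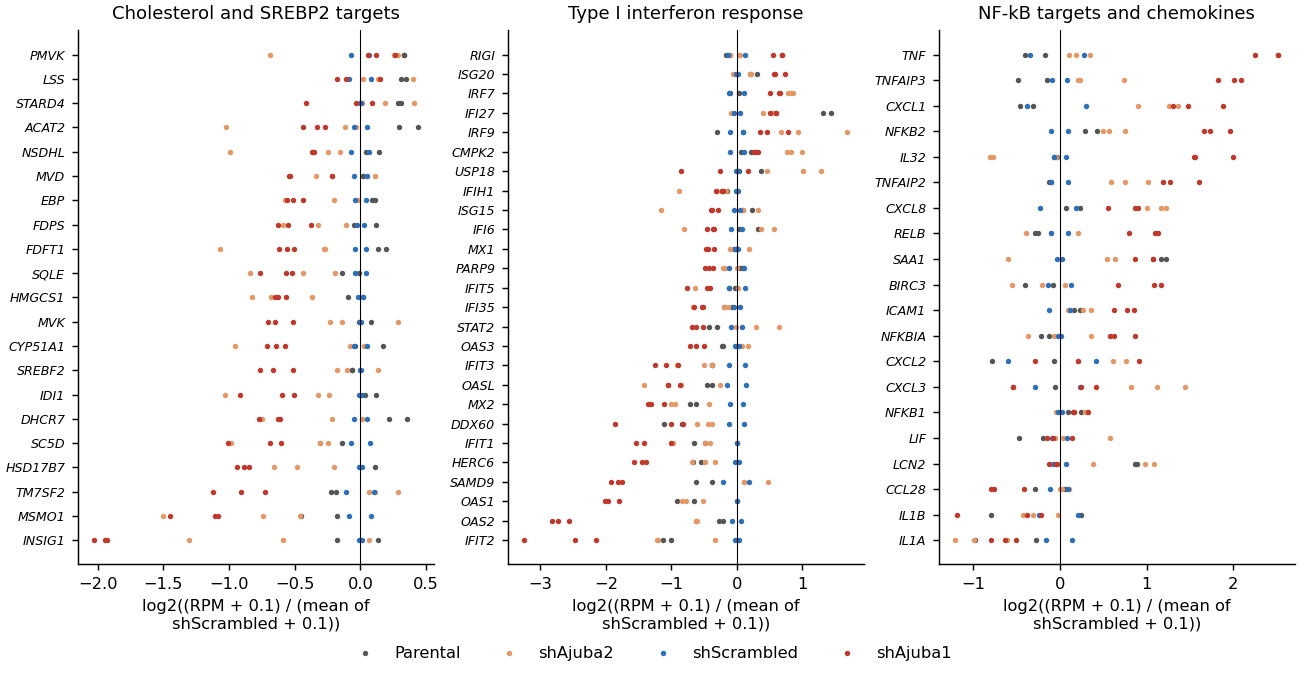
RPM of the members drawn of 3 gene lists in every sample of 4 lines, as log2((RPM + 0.1) / (mean RPM of shScrambled + 0.1)), with 1 point for a sample and genes ordered by log2 fold change. Points of shAjuba1 (red) lie left of shScrambled (blue) for the 18 of 21 cholesterol genes drawn that were called lower, and right of it for 11 of 20 NF-kB targets called higher.

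Of 22 tight junction genes 12 fell and 3 rose, with a median of -0.35. The junction scaffold CGNL1 fell by 2.35, the claudins CLDN1, CLDN7, CLDN2 and CLDN12 by 1.11, 0.80, 0.93 and 0.76, and CLDN15 rose by 0.69. CLDN7 had 27.7, 28.5 and 30.9 RPM against 49.2 and 50.7, below every sample of the other lines. Without replicate 1 of shScrambled, and in the model of all 16 samples, 7 fell. Of 21 adherens junction and desmosome genes 7 rose and 8 fell. The desmosomal proteins JUP (-1.22), DSG2 (-1.13) and DSC2 (-1.39) fell, with 45.8, 41.0 and 55.0 RPM against 106 and 112 for JUP, whereas the nectin NECTIN1 (1.06), the plakophilin PKP1 (1.05) and CDH1 rose. CTNNB1, which encodes beta-catenin, was not called (0.09). Against Parental 2 members of this list were higher and 11 lower. The counts against shScrambled rested on single samples too, with 4 higher and 3 lower without replicate 1 of shScrambled and 3 higher and 5 lower without replicate 2.

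Integrins, the receptors for the matrix, fell in 10 of 18 cases and rose in 3, with a median of -0.43. The second count was near the share of 18.2% over all genes tested. ITGA1, a collagen receptor subunit, had 34.8, 37.5 and 32.1 RPM in shAjuba1, 96.8 and 92.4 in shScrambled, 143 and 139 in Parental and 264, 279 and 278 in shAjuba2. The 4 lines were separate from each other, and shAjuba1 was lowest (-1.46 against shScrambled and -2.93 against shAjuba2). Besides ITGB8, ITGB6 fell by 1.68, ITGB5 by 0.74, ITGAV by 0.68 and ITGB1 by 0.39, and ITGA3 rose by 0.49. Matrix genes split, with 11 of 24 higher and 7 lower. The collagen VI chains COL6A1 (1.79) and COL6A2 (1.89), COL7A1 (0.87) and COL18A1 (0.86) rose, and COL4A1 (-2.19), COL6A3 (-1.37) and fibronectin, FN1 (-0.59), fell.

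Epithelial regulators and mesenchymal markers were described together, since AJUBA is a partner of Snail. ESRP1, a splicing factor of epithelial cells, fell from 27.2 and 28.1 RPM to 7.81, 6.90 and 7.51 (-1.91, SE 0.101, adjusted p = 3.89e-08), and it had 43.0 and 43.9 RPM in Parental. GRHL2 (-1.04), OVOL2 (-0.65) and EPCAM (-0.73) fell too, and ZEB1 (0.57) and VIM (0.43) rose. EPCAM was at 71.6 to 76.3 RPM in shAjuba1, where KRT8 (2332 to 2443 RPM) and KRT18 (2152 to 2237 RPM) were abundant. They belong to the 10 colon epithelial markers by which the labelled cell type was checked, of which 9 were tested and CEACAM5 was at 0 or under 0.05 RPM in these 5 samples. The 10 summed to 5262 to 5505 RPM in shAjuba1 and to 4278 and 4417 in shScrambled. KRT8 and KRT18 made up most of the sum in shAjuba1, and VIM is 1 of the 10. Of the 9 tested 4 rose, VIM among them, and 2 fell (EPCAM and VIL1), so the sum does not show a rise of the markers as a whole. Both keratins were higher than in shScrambled (0.29 and 0.44) and lower than in Parental (-0.39 and -0.27), and they overlap each other on opposite strands. Of the 17 genes in this list 5 rose and 6 fell, with a median of 0.01. Without replicate 2 of shScrambled 3 rose, and in the model of all 16 samples 2 rose.

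Wnt signalling was represented by 2 lists. Among targets and feedback genes 11 of 21 rose and 4 fell, with a median of 0.32. The second count was near the share of 20.2% over all genes tested. MYC had 191, 187 and 189 RPM against 100 and 94.1 (0.94, adjusted p = 1.57e-06), BAMBI rose by 1.09, SP5 by 1.01, TCF7 by 0.93 and NOTUM by 0.70, while LGR5 fell by 2.42 and AXIN2 was not called (-0.01). Against Parental the direction turned, with 4 higher, 10 lower and a median of -0.20, and MYC was still higher (0.46). Leaving out replicate 1 of shScrambled gave 2 lower targets. Among 28 ligands, receptors and secreted inhibitors 5 rose and 8 fell, the first near the share of 18.2% over all genes tested. WNT5A, a ligand of the branch that does not use beta-catenin, had 138, 142 and 134 RPM against 420 and 400 (-1.58, SE 0.0794, adjusted p = 2.8e-08), 337 and 338 in Parental and 422 to 454 in shAjuba2. WNT7B had 3.14, 3.65 and 3.34 RPM against 0.631 and 0.477 (2.61). FZD6 (-1.17) fell, and the receptor ROR1 (1.07) and the inhibitor SFRP5 (1.24) rose. Without replicate 1 of shScrambled 3 rose and 3 fell in this second list.

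In the Hippo pathway 9 of 26 genes rose and 8 fell. AMOTL1, an angiomotin that holds YAP in the cytoplasm, rose from 23.6 and 20.7 RPM to 98.5, 92.3 and 97.1 (2.10, SE 0.0966, adjusted p = 1.34e-08), with 56.0 and 46.8 in Parental. The scaffold WWC1 (0.97) and TEAD4 (0.73) rose, whereas the kinase cofactor MOB1B (-1.36), TEAD1 (-0.93), the kinases STK3 (-0.65) and LATS1 (-0.49) and the adaptor SAV1 (-0.58) fell. TEAD1 had 392, 392 and 396 RPM against 756 and 730. The targets of YAP and TAZ did not move one way, with 7 of 21 higher, 8 lower and a median of -0.15, and AJUBA is itself a member of this list. Of the classical targets CCN2 fell (-0.98) and ANKRD1 fell (-0.52), CCN1 was not called (-0.02), and NUAK2 (1.87) and F3 (0.63) rose. Without replicate 2 of shScrambled 5 of the pathway genes and 4 of the targets were higher, and with replicate 1 left out 5 of the pathway genes were lower.

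EGFR ligands and outputs of the ERK pathway were lower, with 13 of 23 members down, 7 up and a median of -0.47. The ligands AREG (-1.92), EREG (-1.91), BTC (-1.71), NRG1 (-1.25) and HBEGF (-0.56) and the receptor ERBB3 (-1.19) fell. EREG had 3.45, 4.21 and 2.65 RPM against 12.7 and 12.8 in shScrambled and 19.0, 24.4 and 30.6 in shAjuba2, so the 2 knockdown lines stood on opposite sides of the control. The feedback inhibitors SPRY2 (-1.01), SPRY1 (-0.94), SPRED1 (-1.10) and DUSP6 (-0.44) and the factor EGR1 (-0.87) fell, and DUSP5 (0.81) and DUSP4 (0.71) rose. With either sample of shScrambled left out 3 or 4 members rose. Immediate early genes of the AP-1 type were lower in 4 of 18 cases, near the share of 20.2% over all genes tested. They were higher in 5, and KLF2 (1.43) and NR4A2 (-1.67) led the 2 directions among these 18 genes. Against Parental 10 of these were higher and 2 lower, and with replicate 1 or 2 of shScrambled left out 2 or 3 were higher and 3 or 2 lower. Of 17 Eph receptors and ephrins 7 rose and 6 fell. Besides EPHA2 the receptors EPHB2 (0.87) and EPHB4 (0.59) rose, and EPHA4 (-0.90) and the ligand EFNA1 (-0.85) fell, EFNA1 from 15.5 and 19.8 RPM to between 9.36 and 10.6. With either sample of shScrambled left out 4 of them rose, and 3 or 4 fell.

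BMP and TGF-beta genes fell in 13 of 24 cases and rose in 4, with a median of -0.35. The second count was near the share of 18.2% over all genes tested. The BMP antagonists parted, as NOG rose by 1.63 and GREM1 fell by 1.61. SMAD6, an inhibitor of BMP signals, had 9.82, 10.1 and 14.4 RPM against 4.80 and 5.37 (1.15), and TGFBI (-1.06), TGFB2 (-0.71) and INHBA (-0.81) fell. Without replicate 2 of shScrambled, in the model of all 16 samples and against Parental 8 members were lower. In the Notch pathway 6 of 19 rose and 5 fell. JAG1 and DLL4 (0.72) rose among the ligands and DLL1 fell (-0.59), NOTCH1 and NOTCH3 rose by 0.40 and 0.58, and the coactivator MAML3 fell by 1.63. Without replicate 1 of shScrambled 3 rose and 3 fell, and with the GC offset described below the median turned from 0.17 to -0.04.

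The cyclin-dependent kinase inhibitor CDKN1A, which encodes p21 and stops the cell cycle, rose from 54.2 and 57.8 RPM to 136, 133 and 139 (1.26, SE 0.081, adjusted p = 1.85e-07), above every other sample. Of 25 such inhibitors and stress targets 9 rose and 7 fell, among them AEN (0.91), CDKN1C (0.82), BBC3 (0.73) and GDF15 (0.70) on one side and ZMAT3 (-0.74) on the other, and without replicate 1 of shScrambled 5 rose and 2 fell, and with replicate 2 left out 4 fell. DNA replication genes were higher in 11 of 35 cases and lower in 5, with a median of 0.13, and their activator E2F1 had 160, 154 and 188 RPM against 88.2 and 92.2 (0.88). Against Parental they were higher in 5 cases and lower in 11. Leaving out replicate 2 of shScrambled gave 6 higher, and leaving out replicate 1 gave 1 lower. Mitosis genes were higher in 4 of 30 cases and lower in 7, from CENPE at -0.51 to BIRC5 at 0.28, and both counts were near the shares over all genes tested (18.2% and 20.2%). Against Parental 1 was higher and 13 lower. With replicate 1 of shScrambled left out 1 was higher and none lower, and with replicate 2 left out none was higher.

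Stress genes under ATF4 and the unfolded protein response rose in 13 of 24 cases and fell in 3, with a median of 0.38. VLDLR (1.56), CHAC1 (0.99), DDIT3 (0.88), TRIB3 (0.85) and ASNS (0.67) rose, and the cystine transporter SLC7A11 fell, from 58.8 and 48.9 RPM to 19.99, 21.6 and 15.1 (-1.53). Against Parental the direction turned, with 6 higher, 14 lower and a median of -0.26, and ASNS was lower (-0.45). Glycolysis and hypoxia genes mostly were not called, with 4 of 26 higher and 2 lower, against 18.2% and 20.2% of all genes tested. VEGFA, the endothelial growth factor, rose most (1.17). Against Parental 3 of these 26 genes were higher and 8 lower. Leaving out replicate 1 of shScrambled gave 2 higher and none lower, and leaving out replicate 2 gave 2 higher and 1 lower. The aldehyde dehydrogenases, whose activity marks stem-like cells, were lower in 6 of 16 cases and higher in 1. ALDH1A3 had 207, 197 and 209 RPM against 496 and 500 (-1.30, SE 0.0778, adjusted p = 1.03e-07), with 268 and 277 in Parental. Without replicate 1 of shScrambled 3 of the family were lower.

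Colon stem cell and lineage genes fell in 10 of 23 cases and rose in 5, or in 3 without replicate 2 of shScrambled. The microvillus protein VIL1 fell from 54.4 and 56.3 RPM to 18.7, 19.2 and 25.5 (-1.41), ALCAM by 1.72 and FOXA1 by 1.68, and the mucin MUC2 (1.44) and MSI1 (0.73) rose, the last 4 all at under 10 RPM in both lines. Actin and contractility genes split, with 12 of 39 higher and 7 lower, the second near the share of 20.2% over all genes tested. Besides FSCN1 and RHOB, TPM1 (0.80) and EZR (0.65) rose and CNN3 (-2.45) and MYLK (-0.87) fell. The 2 cytoplasmic actins parted, as ACTB fell by 0.56, from 2899 and 2796 RPM to 1997, 1787 and 2066, and ACTG1 rose by 0.40. Against Parental 6 of the actin genes were higher and 18 lower, and without replicate 1 of shScrambled 8 were higher and 4 lower.

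Ribosomal protein genes changed little, with 11 of 78 lower, none higher and a median of -0.04. Against Parental 63 of the 78 were lower, with a median of -0.35, and in the model of all 16 samples none was lower than in shScrambled. Without replicate 1 of shScrambled 1 was lower. Nuclear genes of the respiratory chain were lower in 9 of 36 cases, near the share of 20.2% over all genes, and higher in 1. Against Parental 21 were lower, and without replicate 1 or 2 of shScrambled 4 or 5 were. Those of the mitochondrial genome were lower in 2 of 13 against shScrambled and higher in 11 against Parental, beside the mitochondrial shares given above. Genes that process small RNAs, and so the hairpin itself, were lower in 5 of 16 cases and higher in 1. AGO2, the Argonaute that cleaves targets, rose by 0.39 and AGO4 fell by 0.59, and with 1 sample of shScrambled left out 2 were lower.

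**Figure D4:**
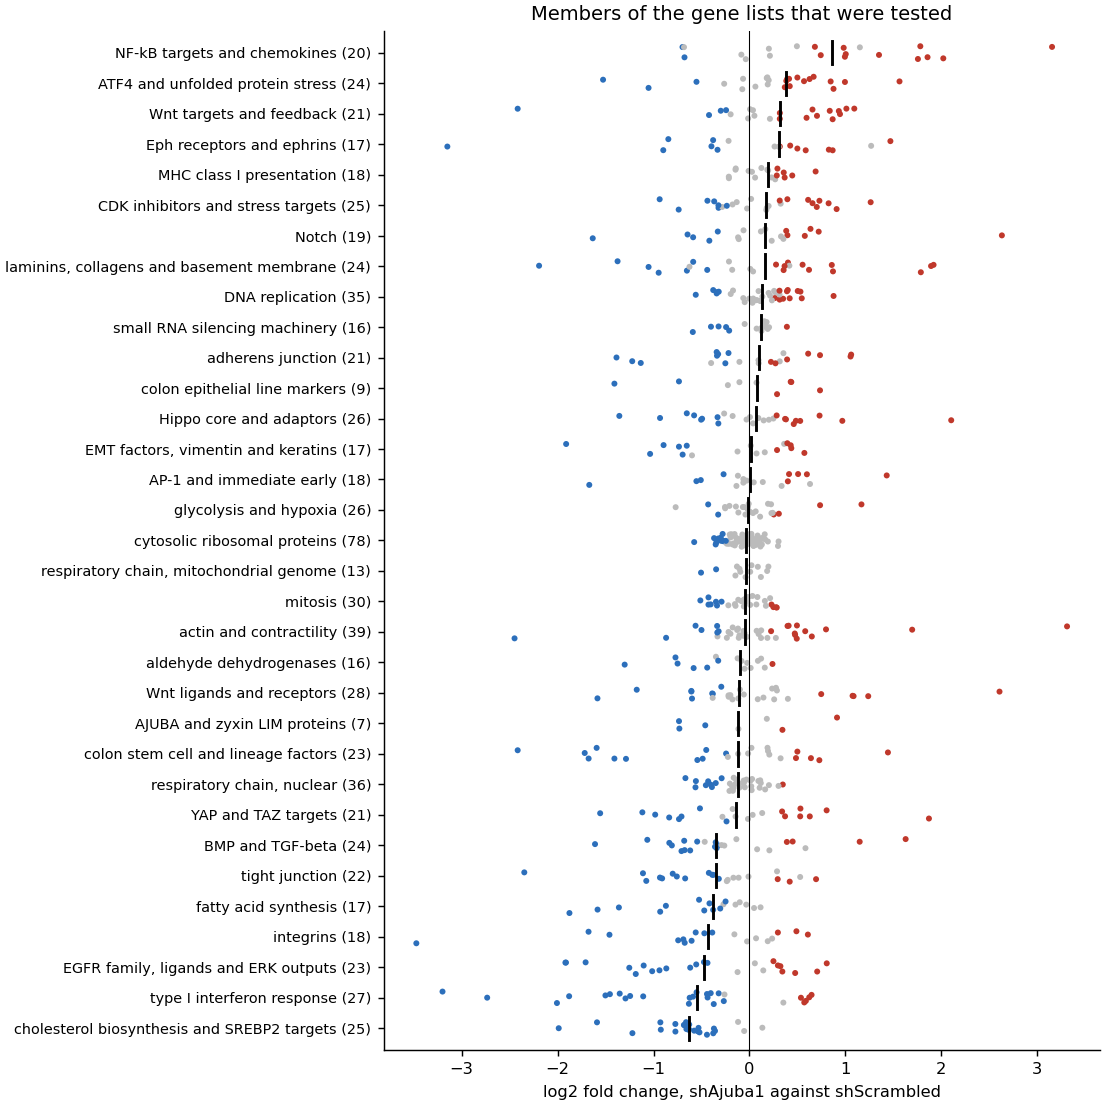
Log2 fold change of each member tested, shAjuba1 against shScrambled, in the 33 gene lists other than the fibroblast and leukocyte markers, ordered by their median, with red points for higher, blue for lower and grey for not called genes, a black bar for the median, and the number tested in brackets. The NF-kB targets have the highest median (0.86) and the cholesterol genes the lowest (-0.63).

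Where DEG lay was related to the GC content of genes. In the quintile of protein-coding genes with the lowest GC content (29.2% to 41.0% of the longest transcript) 37.5% fell and 7.49% rose, whereas in the quintile with the highest (58.7% to 76.0%) 10.1% fell and 33.7% rose. The medians of the log2 fold change went from -0.19 to 0.19, and the cause was not tested. The samples of shAjuba1 differed in this, with medians of log2 CPM relative to shScrambled in the highest quintile of 0.17, 0.06 and 0.40 for replicates 1, 2 and 3. In shScrambled the same value was -0.06 and 0.06. In an alternative added after seeing the data, the trend of each sample over GC content was taken into the model as an offset. The medians of the quintiles then lay between 0.01 and 0.03, as the offset removes this trend by construction, and 9824 genes were DEG. Of the lists above, the cholesterol genes (23 lower), the interferon genes (19 lower and 5 higher) and the NF-kB targets (13 higher and 1 lower) had similar counts with this offset, while the replication genes had 20 higher and the small RNA genes 6 higher. The median of the integrins went to -0.28, that of the MHC class I genes to 0.13 and that of the zyxin-type LIM proteins to -0.29. Long genes fell more often than short ones, with 33.1% lower in the quintile with the longest merged exons and 17.3% in the shortest, and their median went from -0.07 to -0.01 with the offset.

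By chromosome, chromosome 13 stood out, with 166 of its 375 genes lower (44.3%) and 35 higher (9.33%) and a median log2 fold change of -0.30. In each quintile of GC content its protein-coding genes had a lower median than those of the other chromosomes, for example -0.41 against -0.18 in the lowest quintile. With the GC offset its median was -0.21, while the other chromosomes lay between -0.07 and 0.09, and the cause was not tested. The share of lower genes was not even along it. In the 10 Mb windows from 20000001 to 60000000 between 66.0% and 75.0% of protein-coding genes were lower, in the windows that start at 70000001 and 90000001 45.0% and 38.1% were, and in the window from 110000001 to 120000000 10.0% were lower and 33.3% higher. The median of chromosome 13 was -0.23 against Parental and -0.11 against shAjuba2. In its windows from 20000001 to 60000000 the medians of protein-coding genes were between -0.48 and -0.34 against shScrambled. Against shAjuba2 they were between -0.11 and -0.02, and against Parental between -0.46 and -0.25.

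**Figure D5:**
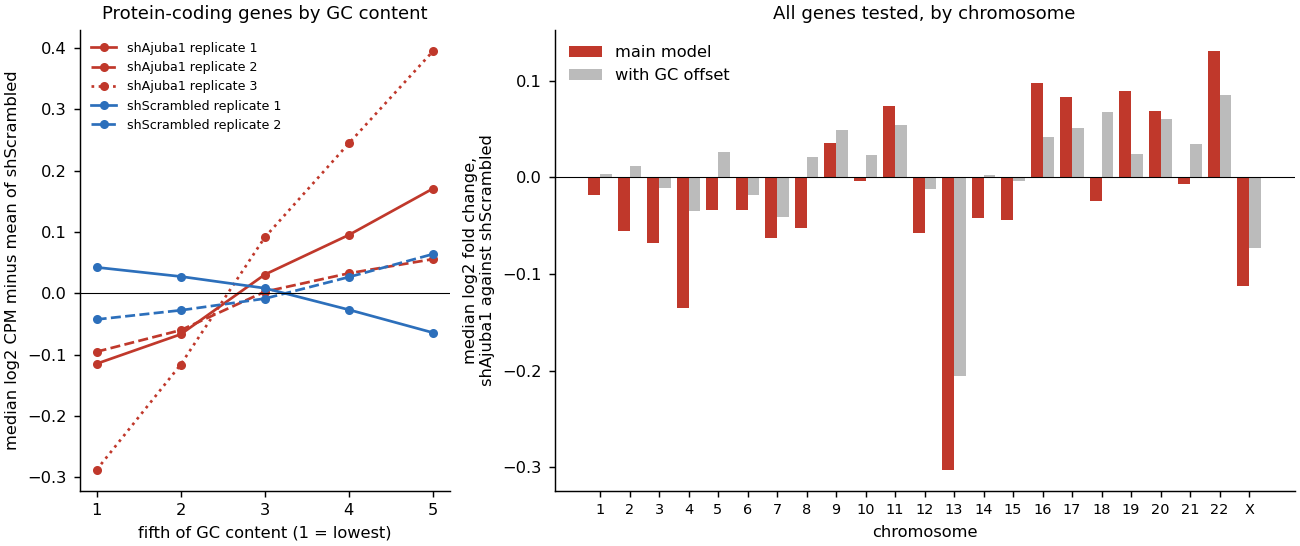
Left, the median of log2 CPM minus the mean of shScrambled over protein-coding genes in quintiles of GC content, for each of the 5 samples. Right, the median log2 fold change of the genes tested on each chromosome in the main model (red) and with the GC offset (grey). Replicate 3 of shAjuba1 has the steepest line on the left, from -0.29 to 0.40, and chromosome 13 is the lowest bar on the right in both models (-0.30 and -0.21).

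Against shAjuba2 4232 of 21600 genes were DEG (19.6%), 2045 higher (9.47%) and 2187 lower (10.1%). Replicate 2 of shAjuba2 stood apart, with 21.2% of its counts on mitochondrial genes against 13.97% and 11.5% in the other samples of that line, and without it 5961 genes were DEG. Against Parental 8056 of 21150 genes were DEG (38.1%), 3712 higher (17.6%) and 4344 lower (20.5%), and without replicate 2 of Parental 3935. Both comparisons use the same 3 samples of shAjuba1 as the main one, so they are not independent of it. Among the genes called the same way against all 3 lines, ZNF469, a zinc finger protein gene, had 17.8, 16.6 and 18.2 RPM in shAjuba1 and between 3.20 and 4.25 in the samples of the 3 lines, and CSF1, the growth factor of macrophages, had 5.42, 5.28 and 6.21 against 0.823 to 1.63. On the lower side NCEH1, a hydrolase of cholesterol esters, had 10.1, 9.92 and 8.31 RPM against 29.1 to 52.8, OXGR1, a receptor for oxoglutarate, 0.963, 0.996 and 1.104 against 4.98 to 7.57, and LINC00973 1.82, 1.76 and 1.85 against 6.81 to 13.2. These genes were picked for this pattern, so their values are a description and are no support for it.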

How the data were processed

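Polyadenylated RNA of SW480 lines was sequenced as 50 bp read pairs (TruSeq stranded mRNA, NovaSeq6000). The authors aligned reads to hg38 (HISAT2) and used featureCounts to assign pairs to genes. The deposited values are raw counts, and nothing was normalised before deposit. The versions, the annotation release and the strand setting are not given in the sources used here. Of 66023 genes in the table, 56434 matched GENCODE release 44, which held 99.8% of counts and gave symbols, types and positions.

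Counts were tested with edgeR 4.0.16 (R 4.3.3): TMM scaling, filterByExpr, a model of the lines compared, the quasi-likelihood F test and Benjamini-Hochberg adjustment at 0.05. The study's methods used DESeq2, which was run here as an alternative (version 1.42.0). The SE is the size of the log2 fold change over the root of F. RPM is per 1000000 counted read pairs and was not tested. The model of all 16 samples shares 1 estimate of spread over the 6 lines. The script was tested on simulated data with known changes. Depth was 30132396 to 50312458 counts in the 5 samples.

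The members, the gene lists and the rule for named genes were chosen with earlier results of these data known. The genes named are those the study names, the 12 largest rises and falls of protein-coding genes of at least 5 RPM without overlap, up to 4 members per list and direction with defining members, the 5 most abundant each way with a log2 fold change of 1 or more in size, the genes set apart from all 3 lines, and 5 non-coding genes of at least 1 RPM. A few more list members were named after their values were seen. Control and Ajuba OE were not tested against shAjuba1. The target sequence of the hairpin is not printed. Promoters are from RefSeq (GRCh38.p14) and were searched for exact letters on both strands. Some list members are counted but not reported here by name.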

Additional observations from a re-analysis of the deposited data

Results flagged for a closer look

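For 52 named genes the log2 fold change of shAjuba1 was set against that of shAjuba2, as the direct difference between both knockdown lines (edgeR's quasi-likelihood test, Benjamini-Hochberg adjustment), and it differed for 37. Over all genes tested 19.6% differed between both lines, but many of the 52 were chosen for a large change in the same 3 samples of shAjuba1, so their share is not to be read against it. The same difference holds whichever control is used, since the control drops out of it.

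Higher in shAjuba1 than in shAjuba2 were LRRC55 by 6.21, SHH by 4.87, FAM30A by 4.05, KRT17 by 3.95, ITGB2 by 2.97, POM121L9P by 2.55, KRT71 by 2.33, CALB2 by 2.05, ITGB2-AS1 by 2.02, KRT4 by 1.91, SUSD2 by 1.85, KRT5 by 1.77, CACNA1H by 1.33, RHOB by 1.27, FSCN1 by 1.18, COL6A1 by 1.16, JAG1 by 0.91, GGT5 by 0.76, WWTR1 by 0.72 and SNAI1 by 0.62. Lower in shAjuba1 were COL4A4 (-2.98), GALNT5 (-2.75), FGF13 (-2.68), TNFSF10 (-2.14), EFNA5 (-1.73), LYPD6B (-1.66), CACNG6 (-1.59), AKAP12 (-1.27), IGFBP5 (-1.19), AMIGO2 (-1.17), TMSB4X (-0.96), STT3B (-0.93), DCBLD2 (-0.92) and NFATC2 (-0.58).

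CDH1 (1.43), PCDH19 (3.05) and COLCA1 (2.04) were also higher in shAjuba1 than in shAjuba2. PCDH19 fell in shAjuba1 against shScrambled, to 1.61, 1.76 and 1.68 RPM from 13.3 and 11.7, and had 0.258, 0.18 and 0.185 RPM in shAjuba2. Replicate 2 of shAjuba2 stands apart in its mitochondrial share, 21.2%, and its part in these 37 differences was not tested.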

How the results depend on the processing

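AJUBA was lower in shAjuba1 than in shScrambled under every alternative run, with a log2 fold change between -0.77 and -0.70 when single samples were left out. The DEG against shScrambled ranged from 4711 (without replicate 1 of shScrambled) to 9695 when single samples were left out. They numbered 2074 with a log2 fold change of 1 or more in size, 5467 in the model of all 16 samples, 6668 with DESeq2 and 9824 with the GC offset, which was added after seeing the data. Against shAjuba2 the range was 2177 to 5961, with 2415 and 2428 without replicates 2 and 3 of shAjuba1 and 2600 without replicate 1 of shAjuba2, and against Parental 3935 to 9078, with 4588 in the model of all 16 samples. Called list members numbered 414, and between 258 (without replicate 1 of shScrambled) and 481 when single samples were left out.

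Of 3691 values for 265 named genes, 3403 kept direction and call, 277 lost the call, 3 gained it and 8 changed sign. RPS6 turned to 0.0557 with the GC offset and lay between -0.148 and 0.0218 with single samples left out, and MKI67 between -0.110 and 0.00489, both positive without replicate 1 of shScrambled. With Parental and shScrambled together as control CDH1 was at -0.22, IFI27 at -0.31, HK2 at -0.0749, ID2 at -0.18 and KRT8 at -0.0913. The causes were not tested.

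Samples with the same replicate number did not deviate together (correlations between -0.1021 and 0.0784). With a replicate block in the model 8863 genes were called against shScrambled, 2937 against shAjuba2 and 8274 against Parental. The log2 fold change of AJUBA against shScrambled was then -0.77. Since shScrambled and Parental have no replicate 3, the block leaves replicate 3 of shAjuba1 without a partner. The fold changes against these lines then rest on replicates 1 and 2, much as when replicate 3 is left out. With library size alone as scaling 40.2% of the DEG against shAjuba2 were higher, against 48.3% with TMM. The precision is limited by the 2 samples of shScrambled and, for genes under 1 RPM, by few counts.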
